A study of Mus musculus with 12 samples.

Results

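The genes for the proteins of the cytosolic ribosome were described as 1 group across the study's 4 deposited lists. Members were the RefSeq protein-coding genes of the mouse build mm10 (GRCm38.p6) whose symbols start with Rpl or Rps followed by a digit, a P or sa. Rps6k kinase genes and names ending in -ps were left out. The rule found 89 of 21631 protein-coding genes, 54 of the large subunit and 35 of the small subunit, on 19 chromosomes. It uses names only, so 12 of the 89 are not the standard ribosomal protein: Rpl10l, Rpl22l1, Rpl32l, Rpl36al, Rpl37rt, Rpl39l, Rpl3l, Rpl7l1, Rps27l, Rps27rt and Rps23rg1 are related copies, and Rps19bp1 encodes a protein that binds RPS19. The subunit was also taken from the name, so the subunit counts include these 12, with Rps19bp1 among the small-subunit genes. The other 77 are given separately where that changes a value.

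The ribosome makes protein from messenger RNA. Its small subunit reads the codons and its large subunit joins the amino acids, and each carries a set of ribosomal proteins wrapped in ribosomal RNA. Growing cells such as pluripotent stem cells transcribe ribosomal protein genes at a high rate and keep the proteins in balance. Many of their messages start with a C followed by a stretch of pyrimidines, the terminal oligopyrimidine (TOP) tract, through which growth signalling controls their translation.

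The 12 chromatin immunoprecipitation sequencing (ChIP-seq) samples fell into 7 groups. H3K27ac, the acetyl mark on lysine 27 of histone H3 that labels active promoters and enhancers, was measured in embryonic stem cells (ESCs) of the mouse line V6.5, with 2 samples at 0 h and 2 at 24 h. All these ESCs were clones carrying Cas9 under the doxycycline-inducible TRE3G promoter and guides that target only Klf4 or the set of Klf2, Klf4 and Klf5. The 0 h cells had no doxycycline and the 24 h cells had it for 24 h. Titles of the 0 h samples carry both TKO and WT. Those of the 24 h samples carry both TKO and KLF4 KO, so the labels do not settle which genes were hit. KLF4, a pluripotency factor that binds DNA through zinc fingers, and H3K27ac were each measured in 2 samples of induced pluripotent stem cells (iPSCs), which are somatic cells reprogrammed to pluripotency. The inputs were 2 ESC libraries and 1 for each iPSC assay. Cells were labelled as grown in 2i, a medium with inhibitors of MEK and GSK3, and the ESCs on irradiated feeder cells. Each measured group has 1 deposited list with no value per replicate. All values below are therefore descriptions without a replicate check, and no test between 0 h and 24 h could be made.

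The ESC lists held 49460 bins of 10 kb at 0 h and 47307 at 24 h, of which 26812 and 25611 had an H3K27ac value. The median bin value was 4.65 at 0 h and 4.05 at 24 h. The iPSC lists held 21563 KLF4 peaks and 55466 H3K27ac peaks, as positions only. Of 8 pluripotency markers, 8 had a value at both times, with a median highest value of 9.90 at 0 h and 8.02 at 24 h. Of 8 fibroblast markers, 4 had a value, with medians of 4.75 and 5.72, and the part of feeder cells in the values was not tested. How many sequencing reads stand behind a value is unknown, since the lists give no depth.

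The promoters show what the members have in common in sequence. A RefSeq window of 250 bases before and 50 after the annotated start was at hand for 69 of the 89 members and for 17274 protein-coding genes in all. The 6 stretches below run from 60 bases before to 20 bases after the start, on the strand of the gene, in the build GRCm38.p6. Capitals mark runs of 5 or more C and T letters that begin with C, within 10 bases of the start or across it. They are shown because Rps21 had the highest H3K27ac value among members, Rplp2 the most KLF4 peaks, Rps10 and Rpl35 a KLF4 peak at the start, Rpl28 and Rps6 no KLF4 peak, and all 6 begin with a TOP-like start. The positions are chr7:4792905-4792984 (+) for Rpl28, chr2:39005112-39005191 (-) for Rpl35, chr7:141447591-141447670 (+) for Rplp2, chr4:86857348-86857427 (-) for Rps6, chr17:27635225-27635304 (-) for Rps10 and chr2:180257319-180257398 (+) for Rps21.
Rpl28: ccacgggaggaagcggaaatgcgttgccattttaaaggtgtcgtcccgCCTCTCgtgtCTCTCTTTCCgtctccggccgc
Rpl35: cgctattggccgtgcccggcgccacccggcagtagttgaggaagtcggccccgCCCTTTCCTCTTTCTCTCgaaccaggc
Rplp2: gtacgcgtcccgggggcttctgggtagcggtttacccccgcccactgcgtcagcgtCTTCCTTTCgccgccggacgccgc
Rps6: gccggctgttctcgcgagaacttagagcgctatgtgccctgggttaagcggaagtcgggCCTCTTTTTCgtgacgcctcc
Rps10: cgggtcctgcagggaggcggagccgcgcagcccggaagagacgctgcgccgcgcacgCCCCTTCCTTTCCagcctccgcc
Rps21: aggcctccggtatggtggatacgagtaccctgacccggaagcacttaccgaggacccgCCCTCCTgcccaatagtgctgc

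A C at the annotated start followed by at least 4 pyrimidines stood in 14 of 69 members (20.3%, 95% exact Clopper-Pearson interval 11.6 to 31.7) and in 2.19% of all promoters. The 14 were Rpl14, Rpl15, Rpl28, Rpl32l, Rpl35, Rpl38, Rplp2, Rps10, Rps15a, Rps18, Rps21, Rps27, Rps27rt and Rps6. A C with 6 pyrimidines after it within 25 bases of the start, a looser form chosen after the values were seen, stood in 41 members (59.4%) and in 24.8% of all promoters. All such intervals cover counting error only, and a match is a description of letters, not of binding.

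Of 4 motifs searched on both strands, the ETS-type letters CCGGAAG were the ones the members held most often. They stood in 25 of 69 windows (36.2%, interval 24.99 to 48.7), against 12.1% of all promoters and 17.0% of the other genes with an H3K27ac value at both times. ETS factors are activators found at many housekeeping promoters, and the 25 included Rps21, Rps6, Rps10, Rplp2 and Rpl35. The YY1-type letters AAGATGG stood in 10 members (14.5%, interval 7.17 to 25.04), among them Rps15a, Rps16, Rpl7a and Rpl13a. They stood in 6.40% of all promoters and in 7.58% of the other genes with H3K27ac. The interval includes the second of these shares. A YY1-type match can share its first letters AAG with the end of an ETS-type match, and KLF-type and SP-type matches can share letters in runs of G.

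The KLF-type letters GGGNGTGG, a short form of the sequence that KLF factors bind, stood in 12 members (17.4%, interval 9.32 to 28.4). That share was 19.5% of all promoters and 23.2% of the other genes with H3K27ac. The 12 were Rpl10, Rpl24, Rpl27, Rpl36al, Rpl37rt, Rpl5, Rpl6, Rps12, Rps15, Rps24, Rps27rt and Rpsa. The SP-type letters GGGGCGGGG stood in 6 members (8.70%, interval 3.26 to 17.97). They stood in 15.7% of all promoters, which the interval includes, and in 21.1% of the other genes with H3K27ac. The mean GC content of the windows was 57.1% in members, 56.1% in all promoters and 60.2% in the other genes with H3K27ac. Against all promoters, the KLF-type and SP-type shares of members thus lay lower by no more than the counting error. The ETS-type, YY1-type and TOP-like shares lay above those of all promoters. Against the other genes with H3K27ac, the SP-type share lay lower by more than the counting error and the ETS-type share higher. The KLF-type and YY1-type intervals include the shares of these genes.

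Among members with an iPSC KLF4 peak centred within 1 kb of the start, 3 held the KLF-type letters. They are shown with 20 bases on each side, in the orientation of the gene, with the match in capitals; all 3 matches read on the strand opposite to the gene. The positions are chrX:74270757-74270804 (+) for Rpl10, chr11:101442034-101442081 (+) for Rpl27 and chr10:80292288-80292335 (+) for Rps15.
Rpl10: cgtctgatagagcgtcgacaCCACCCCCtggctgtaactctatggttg
Rpl27: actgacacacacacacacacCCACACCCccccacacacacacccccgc
Rps15: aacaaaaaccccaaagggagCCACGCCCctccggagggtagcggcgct
The match began 39 bases before the start of Rpl10, 191 before that of Rpl27 and 123 before that of Rps15. The nearest KLF4 peak centre lay 664 bases before the start of Rpl10, 129 before that of Rpl27 and 108 before that of Rps15. RPL10 joins the large subunit late in its assembly. Of the 12 members with these letters 3 had KLF4 within 1 kb (25%), and of the 57 without them 13 did (22.8%). In the other genes with H3K27ac the shares were 53.5% with the letters and 37.2% without.

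At the starts, members had wide H3K27ac peaks, and KLF4 about as often as all genes but less often than other genes with a like H3K27ac level. Of the 69 members with an annotated start, 60 had an iPSC H3K27ac peak lying over it. A KLF4 peak centre lay within 1 kb of 16 of them (23.2%, interval 13.9 to 34.9), against 28.3% of all 17274 genes with a start, which the interval includes. Some part of a KLF4 peak lay directly over the start in 15.9% of members and 15.5% of all genes. The members were set beside other genes of equal H3K27ac level in ESCs. Equal level means that the other genes with a value at both times were weighted to the members' deciles of mean log2 level.

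Of the 67 members with a start and an ESC value at both times, 58 (86.6%, interval 76.0 to 93.7) had H3K27ac over the start, against 42.0% of all such genes and 49.3% of other genes of equal level. KLF4 lay within 1 kb of 15 starts (22.4%, interval 13.1 to 34.2), against 40.8% of all such genes, 41.6% at equal level and 38.9% at equal level and gene length. Both differences were larger than the counting error, and they ran in opposite directions. A KLF4 peak lay directly over 10 of the 67 starts (14.9%, interval 7.40 to 25.7), against 22.5% at equal level, which the interval includes.

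The acetylated stretch of the members reached further after the start than before it. At 1 kb after the start, inside or just past these short genes, 56 of 67 members (83.6%, interval 72.5 to 91.5) were under an iPSC H3K27ac peak, against 24.9% of other genes of equal level and 25.8% at equal level and length. At 1 kb before the start the share was 22.4% in members (interval 13.1 to 34.2) and 22.8% in other genes of equal level. At 2 kb after the start, 31 members (46.3%, interval 34.0 to 58.9) were still under a peak, against 10.3% at equal level. Closer to the start, members were covered more often on that side too than 8939 other genes with H3K27ac. At 200 bases before it the shares were 66.7% of 69 members and 38.3%, and at 600 bases 49.3% and 30.9%. These other genes were not weighted to equal level. At 1 kb before the start their unweighted share was 15.7%, below the 22.8% at equal level. Without the copies and Rps19bp1 the share at 1 kb after the start was 96.4%, or 70.1 percentage points above equal level.

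Peaks over members' starts were wide. Their median width was 1942 bp over 60 members (quartiles 1597 and 2310), against 1124 bp over 3729 other genes with H3K27ac (quartiles 702 and 1733). These 3729 genes were not weighted to the members' level, so widths at equal level were not compared. The widest was 7647 bp at Rpl13a. The next were Rpl4 with 3767 bp, Rps21 with 3707 bp and Rps19, the gene most often mutated in Diamond-Blackfan anaemia, with 3396 bp. The narrowest were Rpl39l with 609 bp, Rpl36a with 757 bp and Rpl10l with 944 bp. The 9 starts without a peak over them were those of Rpl10, Rpl22, Rpl27, Rpl32l, Rpl37rt, Rpl3l, Rps19bp1, Rps27rt and Rps4x.

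**Figure D1:**
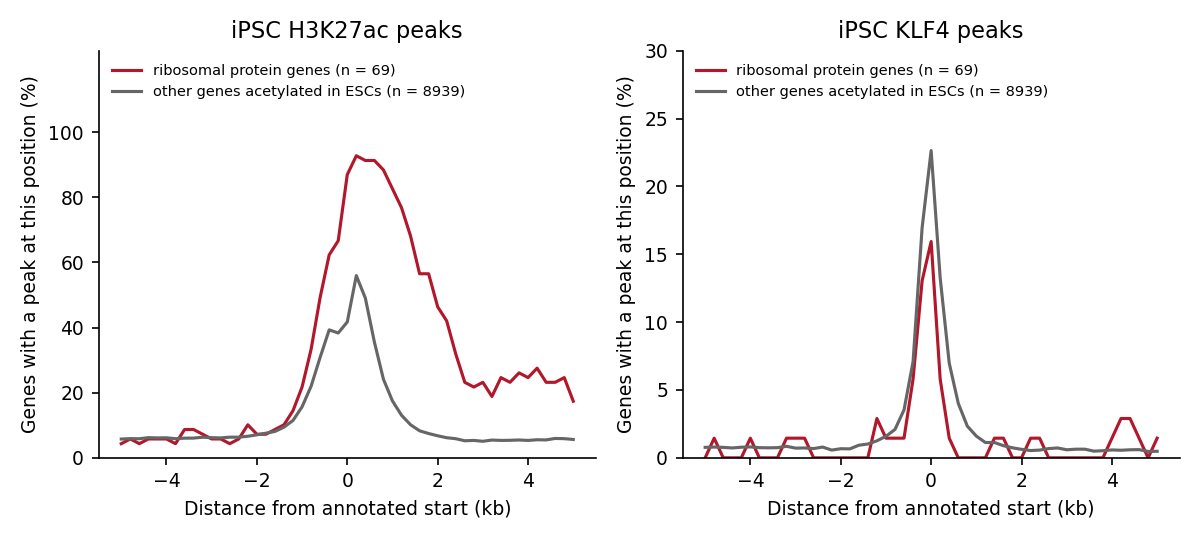
Share of genes (y axis, percent) whose position at a given distance from the annotated start (x axis, kb, positive in the direction of transcription) lies under an iPSC H3K27ac peak (left) or KLF4 peak (right), for 69 ribosomal protein genes and 8939 other genes with ESC H3K27ac at both times. At 1 kb after the start 82.6% of the members and 17.5% of the others lie under an H3K27ac peak, while the KLF4 curve of the members stays below that of the others at the start.

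The 16 members with KLF4 near the start came from both subunits. Peak centres lay within 55 bases of the start in Rps10 (5 before), Rps19bp1 (7 before), Rpl41 (8 after), Rpl18 (28 after) and Rpl35 (55 after). RPL41 is the smallest protein of the ribosome, and RPS10 and RPL35 are among those mutated in Diamond-Blackfan anaemia, an inherited failure of red cell production. Centres lay 75 to 229 bases away in Rps23, Rps15, Rps2, Rpl27, Rps15a, Rpl12, Rps28, Rplp2 and Rps19, of which Rps2 alone had it after the start. The remaining pair, Rpl10 and Rps25, had it 664 and 710 bases before the start.

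By subunit, KLF4 lay within 1 kb of 7 of 42 large-subunit starts (16.7%, interval 6.97 to 31.4) and 9 of 27 small-subunit starts (33.3%, interval 16.5 to 54.0). These intervals overlap. Among genes of related function, 8 of 16 translation factors (50%, interval 24.7 to 75.3), 4 of 18 ribosome biogenesis genes (22.2%, interval 6.41 to 47.6) and 22 of 69 mitochondrial ribosomal protein genes (31.9%, interval 21.2 to 44.2) had it. H3K27ac lay over the start in 14 translation factors (87.5%), 14 biogenesis genes (77.8%) and 37 mitochondrial ribosomal protein genes (53.6%, interval 41.2 to 65.7). The members' 87.0% (interval 76.7 to 93.9) thus lay above the mitochondrial ribosomal proteins, which have a like role in another ribosome, and close to the translation factors. These shares were not taken at equal level. The median highest 0 h value was 5.69 in mitochondrial ribosomal protein genes and 7.51 in members.

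**Figure D2:**
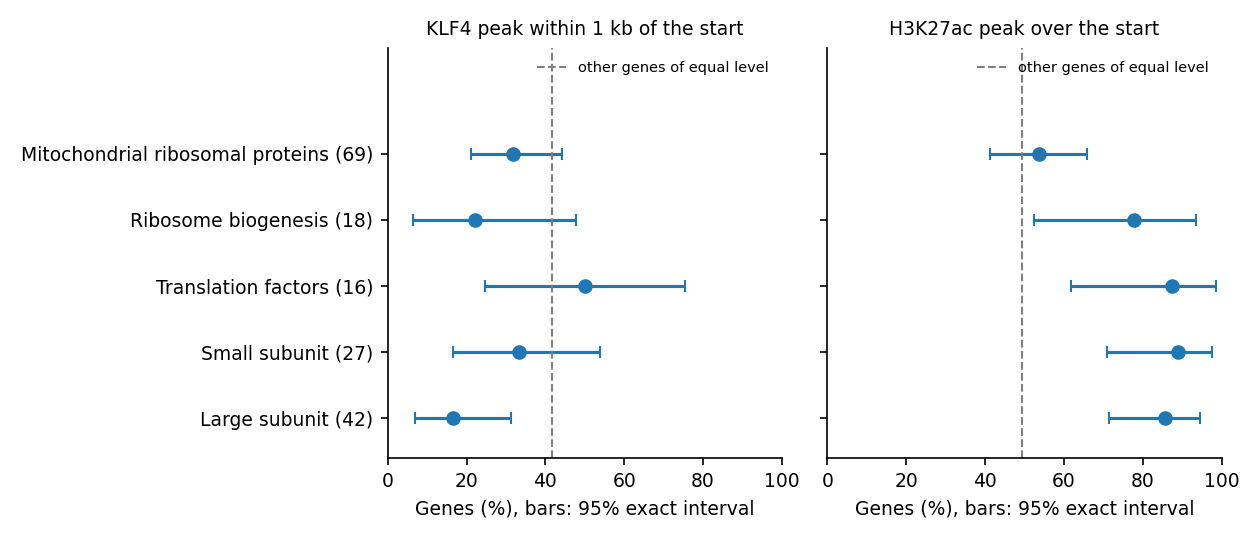
Percent of genes (x axis) with a KLF4 peak centre within 1 kb of the start (left) or an H3K27ac peak over the start (right) in iPSCs, by gene list (y axis, number of genes with a start in brackets), with bars for 95% exact intervals and a dashed line for other genes at the ribosomal protein genes' ESC H3K27ac level. Large-subunit genes lie at 16.7% for KLF4, left of the dashed line at 41.6%, and at 85.7% for H3K27ac, right of the line at 49.3%.

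Over the whole gene with 10 kb on each side, the window used for the rest of this account, 53 of 89 members (59.6%, interval 48.6 to 69.8) held an iPSC KLF4 peak, against 53.2% of all protein-coding genes. The share is near that background. Among the 86 members with ESC H3K27ac at both times it was 59.3%, against 74.9% of the other such genes and 76.5% at equal level. In other genes of equal length alone it was 68.3%, and at equal level and gene length 71.8%. The interval for all 89 members includes the 68.3%. The length matters because members are short, with a median span of 3183 bp against 17329 bp for all protein-coding genes. Members had 1.03 KLF4 peaks on average, against 1.46 in other genes of equal level and length.

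No KLF4 peak lay in the windows of 36 members, 1 in 22, 2 in 24 and 3 or more in 7. Rplp2, an acidic protein of the stalk that recruits translation factors, had the most with 4. Rpl13a, Rps19, Rps19bp1, Rpl18 and Rps27rt were among those with 3. Among large-subunit genes 28 of 54 (51.9%, interval 37.8 to 65.7) and among small-subunit genes 25 of 35 (71.4%, interval 53.7 to 85.4) held 1 or more. The intervals overlap, and the difference between the subunits was not tested.

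An iPSC H3K27ac peak lay in the window of 89 of 89 members (interval 95.9 to 100), against 60.4% of all protein-coding genes and 95.02% of other genes of equal level. The number per member ranged from 1 to 22 with a median of 5. Rps15a had 22 and Rps24 14, while Rpl10l, Rpl22l1 and Rpl39l had 1 each. The 86 members with ESC values had 5.71 peaks covering 4526 bp on average, against 4.17 peaks and 3721 bp in other genes of equal level and length.

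In ESCs the members were acetylated almost throughout. A value was present at 0 h for 88 members and at 24 h for 88, and 86 of 89 had a bin valued at both times (96.6%, interval 90.5 to 99.3), against 52.0% of all protein-coding genes. Rpl35 and Rpl22l1 were among the 3 exceptions. Rpl35 had no bin listed at 0 h, and the bin that holds it had 5.61 at 24 h. The bin that holds Rpl22l1, a paralogue of Rpl22, had 6.44 at 0 h and was not listed at 24 h, when a neighbouring bin had 2.19. Whether a bin left the list through a lost signal or through the way lists were made was not tested.

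The highest value in a member's window had a median of 7.51 at 0 h (range 3.84 to 15.4) and 6.36 at 24 h (range 2.19 to 11.0). The medians of all protein-coding genes with a value were 5.85 and 5.05. Of the 88 members valued at 0 h, 80 lay above the median of all genes. Windows of 10 kb bins reach past these short genes: 81 members share their bins with another protein-coding gene, with a median of 2 others, and in 12 of 88 the highest 0 h bin does not touch the member itself. A value therefore belongs to a neighbourhood, and which gene it comes from was not tested.

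Rps21 had the highest value, 15.4 at 0 h and 11.0 at 24 h, in the bin before the gene. Its own bin had 6.53 and 5.44. Rps23, whose protein sits near the decoding centre, had 11.0 and 8.49, and Rps20 had 10.7 and 8.03. Then came Rps14 with 10.3 and 8.71, Rpl7l1 with 10.2 and 7.87, and Rpl13a with 10.1 and 7.74. The lowest at 0 h were Rpl37rt with 3.84 and 3.45 at 24 h, Rpl39l with 4.28 and 3.95, Rpl10l with 4.78 and 3.01, and Rps27rt with 5.11 and 3.07. Copies thus took the 4 lowest places, followed by Rps27 with 5.44 and 5.21 and by Rpl36al with 5.73 and 4.75. Over the 12 copies and related genes the median highest 0 h value was 6.33, and over the other 76 valued members it was 7.67.

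**Figure D3:**
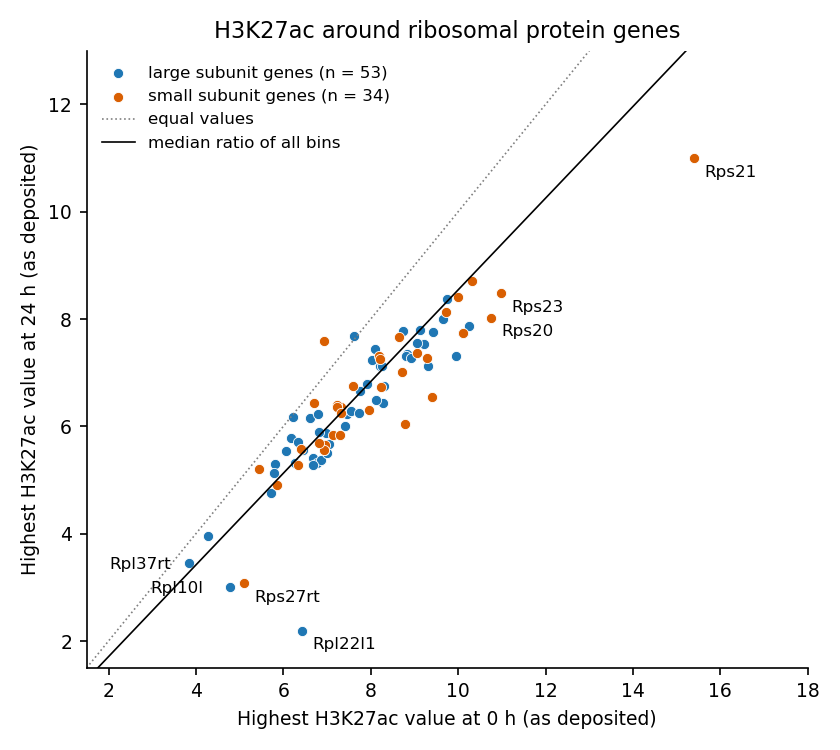
Highest deposited H3K27ac value within 10 kb of each ribosomal protein gene at 0 h (x axis) and at 24 h (y axis), 1 point per gene with a value at both times, 53 of the large and 34 of the small subunit. Points follow the black line, the median ratio of 0.854 over all bins, with Rps21 at 15.4 and 11.0 and with Rpl22l1 and Rps27rt below the line.

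The highest value was lower at 24 h than at 0 h in 85 of 87 members, against 84.2% of all genes with both values. The exceptions were Rpl23, with 7.61 and 7.69, and Rps23rg1, with 6.93 and 7.59. Values were lower at 24 h across the whole list, and any scaling between the times was not given in the sources used here. Changes are therefore given as a relative value: the mean over a gene's bins valued at both times of log2(24 h/0 h), less the median of -0.23 over all 22739 such bins.

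On that scale the members lay near 0 and close to each other. Their median relative value was -0.01 (SD over 86 members 0.11, range -0.42 to 0.22), against 0.02 for the other genes and -0.00 at equal level. With 25 kb flanks the members' median was 0.01, so its sign depends on the window. Below 0 lay 47 members and above it 39, that is 54.7% below, against 46.7% of all genes measured and 50.4% at equal level. The spread was the larger difference: the SD over other genes of equal level and number of bins was 0.24. Within 0.1 of 0 on the log2 scale lay 53 members (61.6%), against 41.5% of other genes of equal level and number of bins. A relative value of -0.32 or lower was held by 1 member, Rps27rt, against 8.07% of all genes measured, and one of 0.32 or higher by none, against 9.45%. With 1 list per time no test gives a p for these counts.

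**Figure D4:**
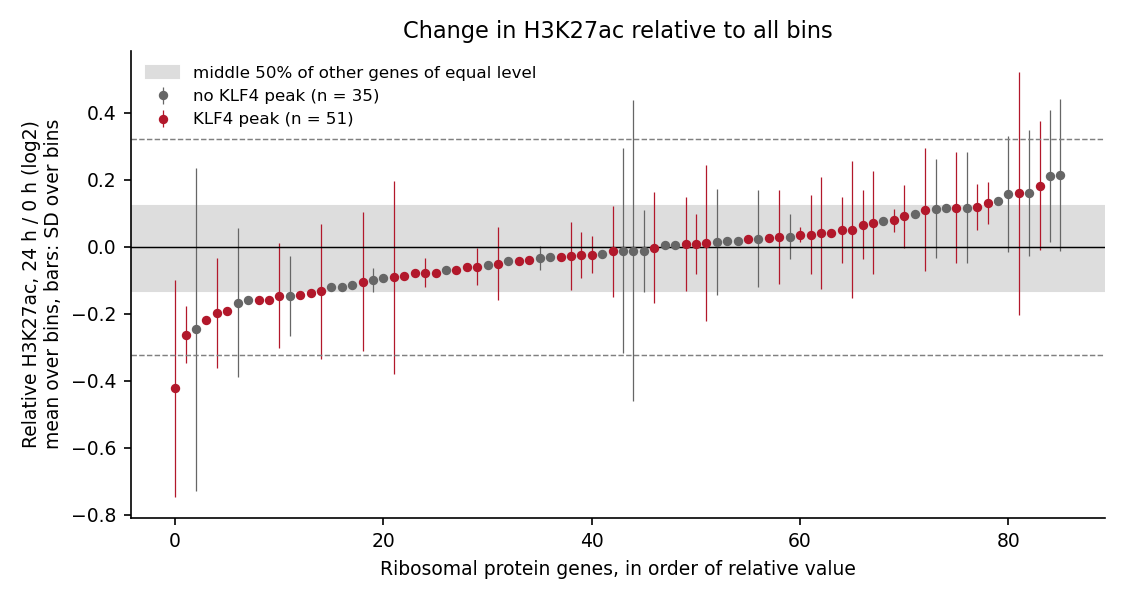
Relative H3K27ac value (y axis, log2, 24 h over 0 h less the median of all bins) of 86 ribosomal protein genes in order of that value (x axis, rank), with bars for the SD over a gene's bins where it has 2 or more and colour for an iPSC KLF4 peak. Most points lie inside the grey band, the middle 50% of other genes of equal level, and 1 point, Rps27rt at -0.42, lies past the dashed lines at -0.32 and 0.32.

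Among the lowest relative values of members with 2 or more bins were those of Rps27rt, Rpl36al, Rpl29, Rps25 and Rps20. Rps27rt, a retroposed copy of Rps27, had 5.11 and 4.11 in its bins at 0 h and 2.78 and 3.07 at 24 h, a relative value of -0.42 (SD over 2 bins 0.32). Rpl36al had -0.25 with an SD of 0.48, since 1 of its 3 bins went from 5.37 to 2.64 and the others lay at 0.10 and -0.04 on the relative scale. Rpl29 had -0.22, Rps25 -0.20 and Rps20 -0.19. Rps27rt held 3 KLF4 peaks, Rpl29 and Rps25 held 2, Rps20 1 and Rpl36al none.

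The highest were Rps27a, Rpl7, Rpl22, Rps24, Rpl41 and Rpl6, between 0.22 and 0.16. Rps27a, whose protein is made fused to ubiquitin, had 8.64 at 0 h and 7.67 at 24 h in its main bin, a relative value of 0.05, and 4.77 and 5.29 in a flanking bin. Rpl7 had 9.14 and 7.80 in its main bin, at -0.00, and 2.59 and 2.90 and 4.68 and 4.74 in its flanks. The higher means thus came from weaker flanking bins. With the highest bin alone, Rpl22 lay at -0.03 and Rpl41 at -0.10, below 0.

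By role, the median relative value was 0.00 over 52 large-subunit genes (26 below 0 and 26 above) and -0.03 over 34 small-subunit genes (21 below and 13 above). The 4 stalk genes had a median of 0.01: Rplp0 0.02, Rplp1 0.02, Rplp2 0.01 and Rpl12 -0.06. Rpl5 and Rpl11, whose proteins bind 5S ribosomal RNA and can restrain MDM2 when assembly fails, had -0.11 and -0.08. The genes known from Diamond-Blackfan anaemia had -0.05 over 16 of 18 (10 below and 6 above), from Rpl31 at -0.12 to Rps24 at 0.16. The copies and Rps19bp1 had -0.03 over 11 (8 below and 3 above). Differences between these lists were not tested.

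Related genes outside the name rule gave like medians with a wider spread. Fau, which encodes RPS30 fused to a ubiquitin-like protein, had 0.02. The 20 translation factors with a value had a median of 0.02 (SD 0.17), 2 of them past 0.32 and none past -0.32. The 22 ribosome biogenesis genes had 0.03 (SD 0.18), with 3 higher and none lower. The 65 of 78 mitochondrial ribosomal protein genes with a value had 0.04 (SD 0.22), with 2 higher and 3 lower. The SD of the members, 0.11, was smaller than those of these 3 lists, and the difference was not tested.

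Members with a KLF4 peak in the window had a relative value 0.01 lower than members without one. The same difference was 0.05 lower in the other genes. Over the alternatives the members' difference ran from -0.009, with KLF4 peaks of at least the median width, to -0.13, in members whose bins touch no other gene. Whether members differ in this from other genes was not tested. By number of peaks the members' medians were -0.01 with none (n = 35), -0.02 with 1 (n = 21), -0.01 with 2 (n = 23) and -0.10 with 3 or more (n = 7). In the other genes they were 0.06, 0.03, 0.01 and -0.03. At the level of single bins, 53 of 78 member bins with a KLF4 peak lay below 0 with a median of -0.07, and 58 of 124 without one, with a median of 0.01. The medians of other bins were -0.08 with KLF4 and 0.06 without. The order of bins with and without KLF4 was thus the same in members as elsewhere, with a smaller gap that was not tested.

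Member bins rarely left the list of valued bins. Of 211 member bins valued at 0 h, 202 were also valued at 24 h (95.7%, interval 92.1 to 98.0), against 89.6% of other bins of equal value. Of 212 valued at 24 h, 202 had a value at 0 h (95.3%, interval 91.5 to 97.7), against 92.6% of other bins of equal value. A KLF4 peak lay in 78 of the 202 (38.6%, interval 31.9 to 45.7), against 45.3% of other bins of equal value. The first share lay above its comparison and the other 2 intervals include theirs.

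The lists also give each bin a whole number whose meaning they do not state, called the bin score here. Summed over the members' 271 distinct bins it was 1348 at 0 h and 1204 at 24 h, so that 24 h held 47.2% of the total, against 47.9% over the bins of all protein-coding genes. The median 24 h share per gene was 46.7% in members and 48.1% in other genes of equal total score. The summed score was lower at 24 h in 58 members, higher in 22 and equal in 9. That is lower in more of them than the 54.5% of all genes with a score, a share not taken at equal score. The summed score was lower by the most in Rpl3, whose protein lines the peptidyl transferase centre, from 46 to 37, in Rps19bp1 from 22 to 13, in Rpl3l from 35 to 27, in Rps25 from 31 to 23, in Rpl22l1 from 9 to 2 and in Rpl23 from 35 to 28. It was higher by the most in Rpl36 from 17 to 22, Rpsa from 10 to 15, Rpl27 from 6 to 10, Rplp2 from 19 to 23, Rpl11 from 5 to 8 and Rpl39 from 11 to 14. Rps25 thus had a lower score at 24 h than at 0 h and a relative value of -0.20, while Rplp2 gained in score with a relative value of 0.01.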

How the data were processed

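The authors deposited 4 lists for 12 samples. The tools were MACS2, Bowtie2, bedtools and SAMtools with the build mm10, per the submitters' processing notes, which give neither versions nor roles. How replicates were combined and how values were normalized was not given in the sources used here. The deposited ESC lists give a signal for H3K27ac per 10 kb bin, and a whole-number bin score of unstated meaning. The deposited iPSC lists give positions. Gene spans and promoter windows came from RefSeq for GRCm38.p6. The start of a gene was that of its promoter window. In some members, such as Rpl18, Rpl19 and Rps2, this start lies inside the gene span and is not its upstream end.

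A gene's bins and peaks overlapped its span with 10 kb flanks by 1 bp or more. Equal level is direct standardisation of other genes over 10 deciles of level, or over 5 classes each of level and span. Equal length alone used 10 deciles of span. Intervals are exact Clopper-Pearson at 95%. Named are the 6 members at each end of relative value (2 or more bins), 0 h value and score change, the 6 with the most KLF4 peaks, members lacking a value and copies. Rps23rg1 was added to the copies after its values were seen, and other names beside single results were likewise chosen after their values were seen. Members and lists were chosen with earlier results of these data known. The summaries were tested on simulated data. Python 3.11.15, pandas 2.3.3, numpy 2.4.6 and scipy 1.17.1 were used.

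Ribosomal protein genes have many processed pseudogenes and near-identical copies elsewhere in the genome, and how reads that map to several places were treated was not given in the sources used here. Of the 89 members, 4 share bins with another member. Some items that the naming rule takes are not reported here.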

Additional observations from a re-analysis of the deposited data

How the results depend on the processing

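No paired analysis was possible because the lists hold no value per replicate, and leaving out single replicates was not possible for the same reason. Results depended mainly on the window and on scaling. The share of members with a KLF4 peak was 21.3% without flanks, 76.4% with 25 kb flanks and 41.6% with peaks of at least the median width. In the same order, the KLF4 share among members with a value at both times differed from that of other genes of equal level and length by -20.3, -7.24 and -11.7 points. Members past -0.32 or 0.32 numbered 2 with 25 kb flanks, 2 with the highest bin alone, 2 when scaled to bins without KLF4, 20 with values as deposited, and 0 with bins above the median, with a fold of 1.5, without copies and Rps19bp1, or for the 8 members whose bins touch no other gene. The share of all genes past these limits is not given for these alternatives, so the counts do not set members apart from other genes. The median relative value was -0.24 unscaled, where the median over all bins was itself -0.23, and -0.074 when scaled to bins without KLF4. The median 0 h value was 6.44 as a mean over bins. For those 8 members it was 8.85, 100% had a value at both times, and the KLF4 difference was -0.13. The KLF-type share was 5.80% with 100 bases before the start, where that of all promoters was 11.6%. The share with H3K27ac 1 kb after the start was 96.4% without copies and Rps19bp1, 70.1 points above equal level. The causes were not tested. With 25 kb flanks the median relative value was 0.014 in place of -0.013, and its difference from other genes of equal level 0.013 in place of -0.012, so both changed sign close to 0. The other main results kept their direction under the alternatives run. The KLF4 share within 1 kb of the start differed from equal level by -21.0 to -16.4 points over the alternatives run, and the share with H3K27ac over it by 35.0 to 42.2 points. The relative values of 13 of 36 named members changed sign in some alternative, including Rpl22, Rpl41, Rpl7, Rps19, Rplp2 and Rpsa.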
